A study of Mus musculus with 10 samples.

Results

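The DNA methylation writers and TET erasers examined here were 9 genes: Dnmt1, Uhrf1, Uhrf2, Dnmt3a, Dnmt3b, Tet1, Tet2, Tet3 and Tdg. They were taken by name, as the methyltransferases, their chromatin cofactors, the 5-methylcytosine dioxygenases and the glycosylase that follows them. The rule uses no value of the tables, but the choice was made with earlier results of these data known. All 9 were found among the 40620 genes counted, and all 9 passed the filter on low counts that left 20808 genes for testing. RNA-seq was performed on MC3T3-E1 cells, an established mouse pre-osteoblast line (subclone 4), at 5 stages with 2 replicates each (A and B), 10 samples in all. Subconfluent and confluent cells were in growth medium (αMEM with inactivated serum), and the cells of the 24 h, 14 d and 21 d stages had been moved after confluence to the same medium to which ascorbic acid (50 µg/ml) and β-glycerophosphate (10 mM) were added. The samples hold no culture of matched age without the osteogenic additions, so time, cell density and medium cannot be told apart. All groups came from 1 clonal line and no label names a genetic change. Nothing states whether A and B were separate cultures, so the p-values measure the spread between these samples, which may be technical.

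In mammals, cytosine methylation at CpG is copied after each round of replication by Dnmt1, which Uhrf1 brings to hemimethylated DNA, while Dnmt3a and Dnmt3b can methylate DNA that carries no mark. The TET enzymes oxidise 5-methylcytosine in reactions that need iron, oxygen and 2-oxoglutarate and are helped by ascorbate, and Tdg excises the further oxidised bases so that repair can restore cytosine. Unless the mark is copied, methylation is diluted by cell division, so the level of these genes is usually read together with the state of the cell cycle. On GRCm38 the maintenance genes lie with Dnmt1 at chr9:20907209-20959888 (minus strand), Uhrf1 at chr17:56303321-56323486 (plus strand) and Uhrf2 at chr19:30030513-30093722 (plus strand). The de novo genes lie with Dnmt3a at chr12:3806007-3914443 (plus strand) and Dnmt3b at chr2:153649450-153687730 (plus strand). The erasers lie with Tet1 at chr10:62804570-62908996 (minus strand), Tet2 at chr3:133463679-133545139 (minus strand), Tet3 at chr6:83362373-83459084 (minus strand) and Tdg at chr10:82629828-82650799 (plus strand).

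Each gene's level is given as RPKM, the authors' reads scaled by gene length and library depth. Comparison of levels between genes therefore rests on the lengths supplied with the counts. These fell short of the annotated exon bases by unlike amounts, with 9168 against 16870 for Tet2 and 5082 against 5106 for Dnmt3b. Changes are log2 fold changes of counts with their standard error (SE), from a quasi-likelihood test in edgeR fitted to all 10 samples. A gene was called when its p-value, adjusted over all 20808 genes by the Benjamini-Hochberg method, was under 0.05. The total of the gene counts ranged from 44736156 to 162939333 per sample, and the lowest count of any member in any sample was 156, for Dnmt3b at 14 d. A single pair of indexes served the first 3 stages and a different pair served 14 d and 21 d. Stages that share a pair of indexes are called a library set here, although nothing states how the libraries were prepared. The run lanes did not follow these sets, and some lanes held libraries of both. Therefore 14 d against 24 h, 14 d against confluent and 21 d against subconfluent cannot be told apart from a difference between these library sets. The comparisons within a set are confluent against subconfluent, 24 h against confluent and 21 d against 14 d. The stages compared there also differed in their run lanes, so these comparisons are not free of a possible batch. RNA from whole cultures was measured, so fewer cells expressing a gene and less RNA per cell cannot be told apart. Of the 8 osteoblast markers, 7 were higher at 21 d than in subconfluent cells, beside 27.3% of all genes. Among them was Ibsp, from 20.04 and 11.8 RPKM to 2570 and 2509 RPKM, and the marker that was not higher was Col1a1 (log2 fold change -0.0071). Ptprc, Adgre1, Cdh5, Kdr and Myod1, which define blood cells, macrophages, endothelium and muscle, were at 0 or at most 0.01 RPKM in all 10 samples. Other genes of the blood and muscle lists were present. Lyz2 was at 9.81 to 16.1, Csf1r at 1.83 to 3.19, Cd68 at 0.46 to 0.94 and Acta1 at 14.3 to 43.6 RPKM. Des of the muscle list and Pecam1 of the endothelium list also passed the filter. They lay at -1.14 to 0.57 and at -4.71 to -2.43 log2 CPM (counts scaled to library size). The part of all these genes in the results was not tested. Acan, a defining cartilage gene, was at most 0.02 RPKM although Col2a1 lay between 33.1 and 210.4 RPKM. The 3 cartilage genes tested, Sox9, Col2a1 and Col9a1, were higher at 14 d than in confluent cells, as were 16.9% of all genes. Of these, 2 were higher and 1 lower at 21 d than in subconfluent cells. The same held for the 3 adipocyte genes tested, beside 27.3% of all genes higher and 23.5% lower. Genes of these lists could pass the filter through a stage in which they were high.

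The replicates of the 24 h stage stood apart in a way that touches these genes. Over all genes that reached 10 counts in all 10 samples, the log2 ratio of A to B at 24 h had a median of 0.09 for the 6320 genes shorter than 2000 bases and -0.76 for the 1173 genes of at least 8000 bases. At the other stages these medians lay between -0.04 and 0.18. The 9 members are 3666 (Tdg) to 14697 (Tet1) bases long in the table, and all 9 were lower in replicate A than in B at 24 h, with log2 ratios from -0.34 (Uhrf1) to -1.20 (Tet2). The fit shares one estimate of the spread between stages, so the results below are also given without the 24 h samples where that changed a call.

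**Figure D1:**
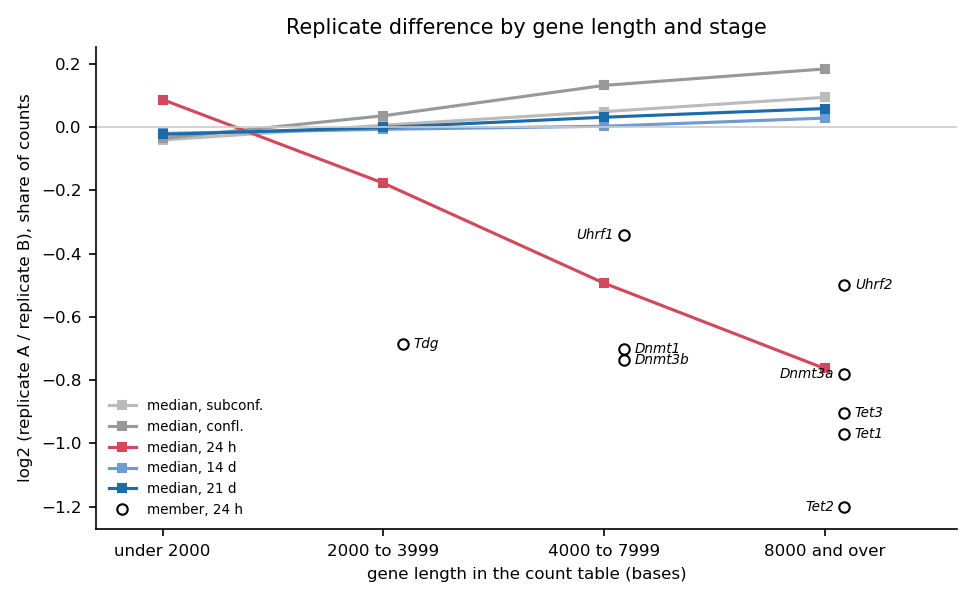
Log2 ratio of A over B between the replicates, as shares of each library's counts, by class of gene length in bases. Squares joined by lines are medians over all genes that reached 10 counts in all samples, 1 line per stage; open circles are the 9 members at 24 h, placed in their length class. Only the 24 h line falls with length, from 0.09 to -0.76, and all 9 members lie below 0.

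Up to 14 d, Uhrf1 and Dnmt1, the 2 genes of maintenance methylation, were the most abundant of the 9. In subconfluent cells the order of the levels was Uhrf1 (83.2 ± 1.2 RPKM, SD, n = 2), Dnmt1 (54.5 ± 0.26), Tdg (10.7 ± 0.36), Uhrf2 (6.62 ± 0.10), Tet3 (3.40 ± 0.10), Dnmt3a (1.34 ± 0.093), Dnmt3b (1.31 ± 0.31), Tet2 (1.02 ± 0.11) and Tet1 (0.54 ± 0.065). Of these neighbours only Dnmt3a and Dnmt3b overlapped in their 2 samples. At 21 d the order was Uhrf2 (8.98 ± 0.57), Dnmt1 (8.42 ± 0.70), Uhrf1 (5.09 ± 1.2), Tet3 (3.07 ± 0.055), Tdg (2.80 ± 0.17), Dnmt3a (1.65 ± 0.060), Tet2 (1.13 ± 0.030), Dnmt3b (1.05 ± 0.20) and Tet1 (0.51 ± 0.015). There, Uhrf2 overlapped with Dnmt1 and Tet2 with Dnmt3b. Uhrf1 thus went from the highest of the 9 to the third, and Tdg from the third to the fifth.

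**Figure D2:**
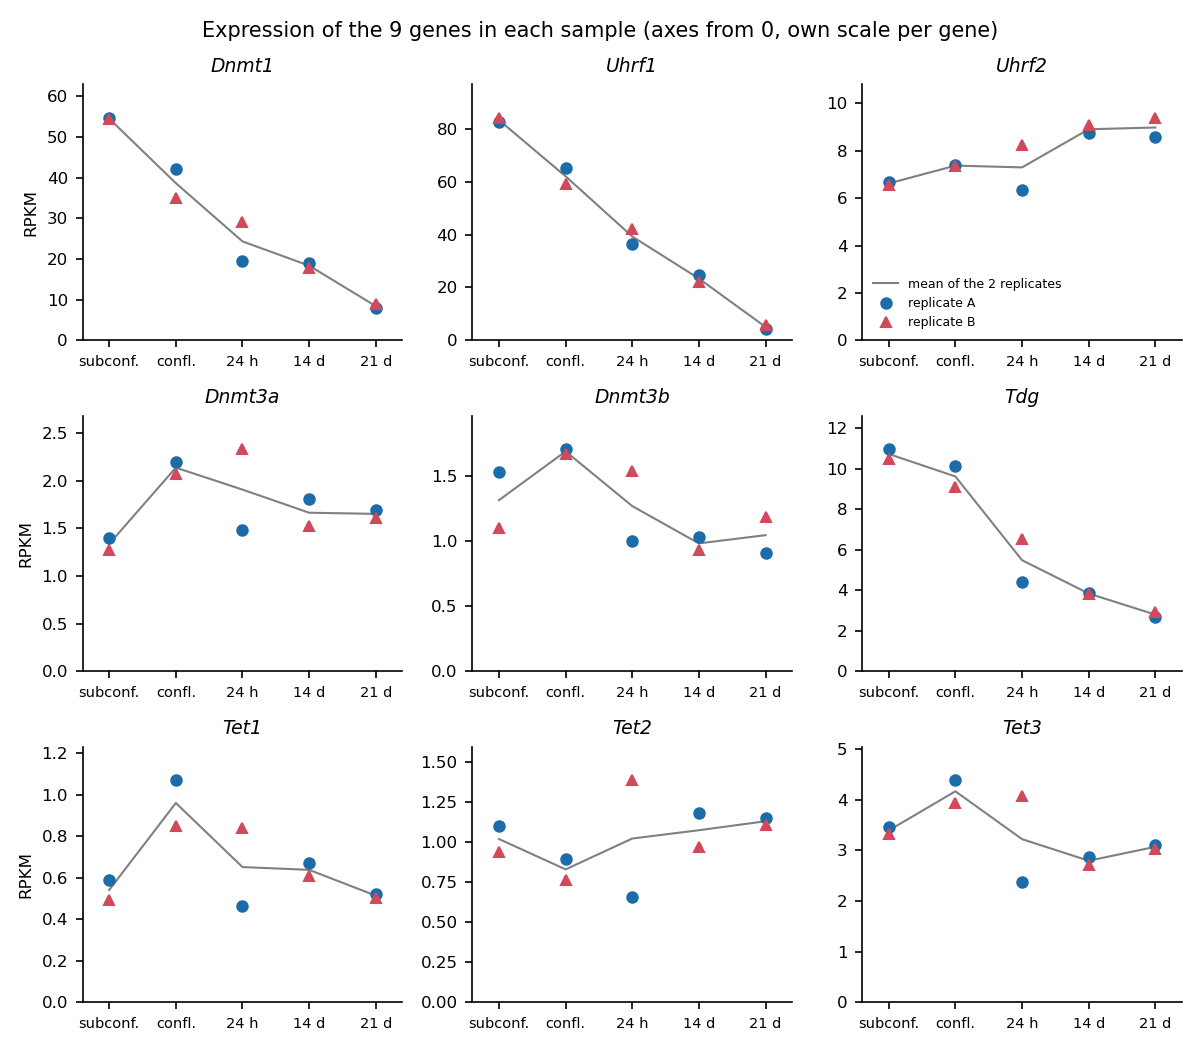
RPKM of each of the 9 genes at the 5 stages, with each axis starting at 0 on its own scale. Circles are replicate A, triangles replicate B, and the line joins the means of the 2 replicates. Dnmt1, Uhrf1 and Tdg step down from stage to stage, whereas the 24 h replicates of the TETs and of Dnmt3a and Dnmt3b lie further apart than those of the other stages.

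Over the whole course, 4 of the 9 genes varied by the F test over the 5 stages: Uhrf1 (adjusted p = 3.46e-05), Dnmt1 (adjusted p = 0.000175), Tdg (adjusted p = 0.000288) and Uhrf2 (adjusted p = 0.00667). Without 24 h replicate A 8 of the 9 passed, beside 63.4% of all genes, and without 24 h replicate B 8 passed, beside 72.9%. With all samples this was the case for 48.9% of all genes tested, so the number of members that varied was close to the background. In 21 d against subconfluent cells 3 members were lower, where 23.5% of all genes were called lower, and 1 was higher, where 27.3% were called higher. Together the 4 called members stand beside 50.7% of all genes called in that comparison. The median log2 fold change of the 9 members was -0.03 and that of all genes tested was 0.04.

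Dnmt1 encodes the maintenance methyltransferase. Its level was 54.7 and 54.3 RPKM in subconfluent cells, 42.2 and 35.1 RPKM in confluent cells, 19.5 and 29.1 RPKM at 24 h, 19.0 and 17.7 RPKM at 14 d, and 7.93 and 8.92 RPKM at 21 d. Each stage lay below the one before it in both samples, with no overlap between neighbouring stages. The fall over the whole course was 5.96-fold (log2 fold change -2.58, SE 0.18, adjusted p = 2.84e-05). Within the second library set, Dnmt1 fell 2.29-fold from 14 d to 21 d (log2 fold change -1.20, SE 0.17, adjusted p = 0.00506). The steps from subconfluent to confluent (log2 fold change -0.52, SE 0.17, adjusted p = 0.165) and from confluent to 24 h (-0.59, SE 0.17, adjusted p = 0.0969) did not pass the test when all samples were fitted.

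Uhrf1 encodes the reader of hemimethylated CpG that recruits Dnmt1. It was at 82.4 and 84.1 RPKM in subconfluent cells, 64.9 and 59.0 RPKM in confluent cells, 36.3 and 42.2 RPKM at 24 h, 24.7 and 22.1 RPKM at 14 d, and 4.25 and 5.93 RPKM at 21 d. Again no neighbouring stages overlapped. Uhrf1 fell 15.0-fold over the course (log2 fold change -3.91, SE 0.17, adjusted p = 5.99e-06), the largest fall of the 9 genes. Its fall from 14 d to 21 d alone was 4.82-fold (log2 fold change -2.27, SE 0.16, adjusted p = 0.000456). Between 24 h and 14 d it was 1.54-fold lower (log2 fold change -0.62, SE 0.16, adjusted p = 0.0348).

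Uhrf2, the paralog of Uhrf1, binds similar DNA but does not take its place in maintenance. It moved the other way, from 6.69 and 6.55 RPKM in subconfluent cells through 7.39 and 7.35 RPKM in confluent cells and 6.35 and 8.25 RPKM at 24 h to 8.75 and 9.06 RPKM at 14 d and 8.57 and 9.39 RPKM at 21 d. The samples of 14 d and 21 d were higher than those of the 3 earlier stages and overlapped with each other. Uhrf2 was 1.47-fold higher at 21 d than in subconfluent cells (log2 fold change 0.56, SE 0.11, adjusted p = 0.00381) and 1.40-fold higher at 14 d than in confluent cells (0.49, SE 0.11, adjusted p = 0.0117). Both comparisons cross the library sets, and within the sets no change of Uhrf2 passed the test. When libraries were scaled by their totals and not by TMM, which moved the median of all genes from 0.03 to -0.20 in 14 d against confluent cells, the change there was 0.26 on the log2 scale with an adjusted p of 0.24. The call over the whole course was lost under the same scaling, at 0.40 on the log2 scale with an adjusted p of 0.0672.

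The promoters of the 2 genes that fell most are shown with those of Tdg, which also fell, and Uhrf2, which rose. This choice followed the search, because Dnmt1 and Uhrf1 held a string that the other 7 members lacked. The promoters of Dnmt3b and Tet1, also planned, are not printed, and for Dnmt1 the window with matches is shown. Uhrf2 was added to the comparison after its values were seen. The sequences are from RefSeq on GRCm38.p6, run from 250 bases before to 50 bases after an annotated start, and read 5′ to 3′ on the strand of the gene. Capitals mark matches to TTTNNCGC on either strand, an E2F-like string, where matches may overlap. The Dnmt1 window is chr9:20952574-20952873 on the minus strand, the Uhrf1 window chr17:56304063-56304362 on the plus strand, the Uhrf2 window chr19:30030263-30030562 on the plus strand and the Tdg window chr10:82629588-82629887 on the plus strand.
Dnmt1: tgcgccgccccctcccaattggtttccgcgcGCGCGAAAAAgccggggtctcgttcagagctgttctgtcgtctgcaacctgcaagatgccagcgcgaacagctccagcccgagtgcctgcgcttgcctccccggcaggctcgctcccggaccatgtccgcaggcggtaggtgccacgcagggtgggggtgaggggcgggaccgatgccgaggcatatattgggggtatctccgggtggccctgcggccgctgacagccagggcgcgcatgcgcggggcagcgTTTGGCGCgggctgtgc
Uhrf1: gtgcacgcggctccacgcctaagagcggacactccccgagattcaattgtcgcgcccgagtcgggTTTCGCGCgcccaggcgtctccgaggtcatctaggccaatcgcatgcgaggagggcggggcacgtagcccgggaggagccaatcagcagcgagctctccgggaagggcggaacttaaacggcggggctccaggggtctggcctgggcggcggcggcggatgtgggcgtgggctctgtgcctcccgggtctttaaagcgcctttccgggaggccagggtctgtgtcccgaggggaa
Uhrf2: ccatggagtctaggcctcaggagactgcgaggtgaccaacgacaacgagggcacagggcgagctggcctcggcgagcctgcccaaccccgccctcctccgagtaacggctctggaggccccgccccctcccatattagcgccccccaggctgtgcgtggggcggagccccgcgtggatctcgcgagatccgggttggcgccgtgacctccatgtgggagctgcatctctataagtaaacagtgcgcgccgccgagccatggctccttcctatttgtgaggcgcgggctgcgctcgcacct
Tdg: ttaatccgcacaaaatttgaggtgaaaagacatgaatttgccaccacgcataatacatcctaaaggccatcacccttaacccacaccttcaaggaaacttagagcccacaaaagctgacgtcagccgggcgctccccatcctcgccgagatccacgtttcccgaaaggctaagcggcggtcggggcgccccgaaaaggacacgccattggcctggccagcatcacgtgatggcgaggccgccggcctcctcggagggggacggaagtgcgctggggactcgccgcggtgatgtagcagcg
All 9 members had at least 1 such window, 14 in all. The E2F-like string was found in 1 of the 3 Dnmt1 windows, with 3 matches of which the first pair overlap, and in both Uhrf1 windows, with 1 match each. None of the other 7 members had a match in its windows. Over all 32851 mouse promoter windows of this length 5.17% held the string. The string contains a CpG, and the number of windows differed between members. This share is therefore not matched to the members' windows, and the difference between members was not tested. The string TTTGAA, known as CHR, was in 17.89% of all windows and was found for another Dnmt1 window and for Dnmt3b. The 4 windows shown held 33, 33, 28 and 26 CpG, against a median of 7 over all windows. The count tables give 1 value per gene, so they do not show which start was used, and a match of letters is not evidence that a factor was bound.

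Dnmt3a and Dnmt3b encode the de novo methyltransferases and were low throughout. Dnmt3a was at 1.40 and 1.27 RPKM in subconfluent cells, 2.199 and 2.07 RPKM in confluent cells, 1.48 and 2.33 RPKM at 24 h, 1.81 and 1.52 RPKM at 14 d, and 1.69 and 1.61 RPKM at 21 d. Both samples of every later stage lay above both subconfluent samples. Dnmt3b was at 1.53 and 1.10 RPKM, 1.71 and 1.67 RPKM, 1.002 and 1.53 RPKM, 1.03 and 0.93 RPKM, and 0.91 and 1.19 RPKM at the same 5 stages, and its subconfluent and 21 d samples overlapped. Neither passed the edgeR test in any of the 6 comparisons when all samples were fitted, while 3 of their 12 values had an unadjusted p under 0.05 and 1 of 12 passed in DESeq2. Nearest to the threshold was Dnmt3a at 21 d compared with subconfluent cells, at a value of 0.42 on the log2 scale (95% interval 0.00 to 0.84, adjusted p = 0.0857). For Dnmt3b the same change was -0.21 (95% interval -0.77 to 0.34, adjusted p = 0.492).

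Their relatives were scarcer still or fell. Dnmt3l, the catalytically inactive partner of the de novo enzymes in germ cells, had at most 2 counts in any sample and was not tested. Dnmt3c, a rodent copy of Dnmt3b, lay between 0.13 and 0.41 RPKM, and as a close copy it could share reads with Dnmt3b. Trdmt1, which methylates transfer RNA, went from 4.68 and 4.21 RPKM in subconfluent cells to 1.97 and 2.11 RPKM at 21 d (log2 fold change -1.005, SE 0.13, adjusted p = 0.000525).

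The 3 TET genes kept low levels over the course, with Tet3 the most abundant in every sample. Tet3 was at 3.47 and 3.32 RPKM in subconfluent cells, 4.39 and 3.94 RPKM in confluent cells, 2.37 and 4.08 RPKM at 24 h, 2.88 and 2.72 RPKM at 14 d, and 3.11 and 3.03 RPKM at 21 d. Tet1 was at 0.59 and 0.50 RPKM, 1.07 and 0.85 RPKM, 0.47 and 0.84 RPKM, 0.67 and 0.61 RPKM, and 0.52 and 0.50 RPKM at the same stages. Tet2 was at 1.10 and 0.94 RPKM, 0.89 and 0.77 RPKM, 0.66 and 1.39 RPKM, 1.18 and 0.97 RPKM, and 1.14996 and 1.11 RPKM. At 24 h the log2 ratio of replicate A to B was -0.97 for Tet1, -1.20 for Tet2 and -0.91 for Tet3, so that this stage overlapped with every other for Tet2 and Tet3 and with all but the confluent stage for Tet1.

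In none of the 6 comparisons did a TET gene pass the edgeR test with all samples, and the F test gave adjusted p-values of 0.105 (Tet1), 0.409 (Tet2) and 0.5 (Tet3). Of the 18 values, 1 had an unadjusted p under 0.05 and the same 1 passed in DESeq2, Tet1 in confluent against subconfluent cells (edgeR log2 fold change 0.80, SE 0.24, adjusted p = 0.15). The intervals show what these samples leave possible. From subconfluent to 21 d the log2 fold change was 0.04 for Tet1 (95% interval -0.53 to 0.61), 0.26 for Tet2 (-0.42 to 0.95) and -0.03 for Tet3 (-0.48 to 0.43). In 24 h against confluent cells, the step at which ascorbic acid was added to a medium not stated to hold or lack it before, it was -0.48 for Tet1 (95% interval -1.05 to 0.09), 0.38 for Tet2 (-0.31 to 1.06) and -0.29 for Tet3 (-0.75 to 0.16). A 2-fold fall of Tet1 and a 2-fold rise of Tet2 at that step therefore lie within the intervals. Of the summed TET RPKM, Tet3 made up between 62.1% and 70.0% on average per stage, Tet2 between 13.9% and 23.9% and Tet1 between 10.9% and 16.1%. The Tet2 share was lowest in confluent cells, at 14.0% and 13.8%, and lay between 18.8% and 24.9% in all samples of the other stages.

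Tdg encodes the glycosylase that removes 5-formylcytosine and 5-carboxylcytosine. Its level was 10.97 and 10.5 RPKM in subconfluent cells, 10.1 and 9.08 RPKM in confluent cells, 4.43 and 6.54 RPKM at 24 h, 3.88 and 3.80 RPKM at 14 d, and 2.68 and 2.92 RPKM at 21 d, with no overlap between neighbouring stages. It was 3.53-fold lower at 21 d than in subconfluent cells (log2 fold change -1.82, SE 0.15, adjusted p = 7.44e-05). Tdg was the 1 member called in 24 h against confluent cells (1.66-fold lower, log2 fold change -0.73, SE 0.15, adjusted p = 0.0387), where 5.15% of all genes were called and 1.57% were called lower. That call passed in 9 of 21 alternative fits and was lost when any 1 library of another stage than 24 h was left out, while 2 members passed without 24 h replicate A (Tdg lower, Tet2 higher, beside 10.1% of all genes) and 6, all lower, without 24 h replicate B (39.9%). The counts of Tdg are uncertain in 2 ways. The processed pseudogene Tdg-ps (chr15:82516311-82519278, GRCm38) had a higher mean count than Tdg itself, 2129.8 against 1641.0, and fell alike from 16.4 and 16.2 RPKM to 4.53 and 4.10 RPKM (log2 fold change -1.80, SE 0.10, adjusted p = 1.48e-05), so reads of the 2 could have been exchanged. Tdg also shares 367 exon bases with Glt8d2 on the opposite strand, and the counting is not stated to use strand.

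Between neighbouring stages 0 to 2 of the 9 members passed at each step in the edgeR fit to all samples. The share of all genes called ran from 3.28% to 17.3%. In DESeq2, 2 to 4 members passed at each step. In confluent against subconfluent cells 0 of 9 passed the edgeR test, where 3.28% of all genes did, while 4 had an unadjusted p under 0.05 and 4 passed in DESeq2 (Dnmt3a and Tet1 higher, Dnmt1 and Uhrf1 lower). Without 24 h replicate A 4 also passed in edgeR, beside 14.5% of all genes, as did 4 without B (14.6%). In 14 d against 24 h 2 passed, beside 17.3% of all genes: Uhrf1 lower (8.21% of all genes were lower) and Uhrf2 higher (9.08% were higher). This count was 0 without any 1 library of the subconfluent, confluent or 14 d stages (3.85% to 12.4% of all genes) and 1 without either 21 d library. It was 5 without 24 h replicate A (22.8%) and 4 without 24 h replicate B (46.6%). From 14 d to 21 d 2 passed, Dnmt1 and Uhrf1, both lower, beside 9.72% of all genes called and 5.95% called lower. Without 21 d replicate A Uhrf1 alone passed, beside 3.41% of all genes. At 14 d compared with confluent cells 4 passed, beside 32.1% of all genes. Of these, 3 were lower (15.3% of all genes): Uhrf1 (2.28-fold, adjusted p = 0.0015), Tdg (2.15-fold, adjusted p = 0.00176) and Dnmt1 (1.81-fold, adjusted p = 0.0076). The other 1 was Uhrf2, higher, as were 16.9% of all genes. Dnmt1 and Uhrf2 no longer passed without confluent replicate A (18.0% of all genes called) or without 14 d replicate B (16.3%), and Uhrf2 also not without confluent replicate B (19.4%). Without 24 h replicate B 7 members passed, beside 48.8% of all genes.

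**Figure D3:**
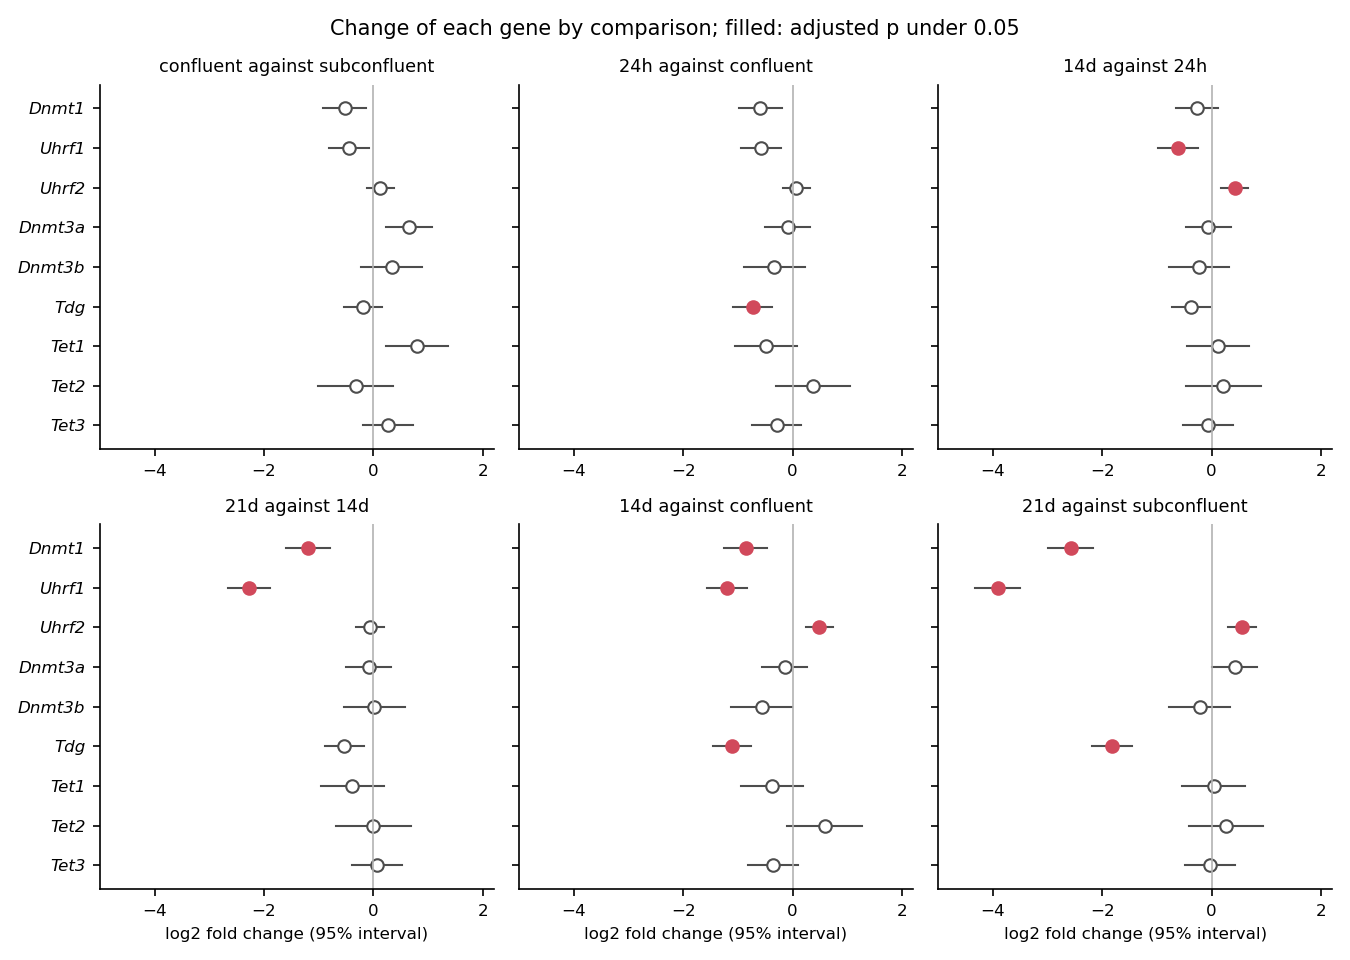
Log2 fold change of each member in the 6 comparisons, with 95% intervals from the edgeR fit to all 10 samples. Filled points passed at an adjusted p under 0.05; open points did not. Dnmt1 and Uhrf1 move furthest in 21 d against subconfluent cells, at -2.58 and -3.91, while the intervals of the 3 TET genes span 0 in every panel except that of Tet1 in confluent against subconfluent cells.

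Without the 24 h samples the spread was smaller and more of the members passed, as did more of all genes. In confluent against subconfluent cells 4 of 9 members were then called, beside 16.5% of all genes. Dnmt3a was higher (log2 fold change 0.65, adjusted p = 0.00772), as were Tet1 (0.80, adjusted p = 0.0142) and Tet3 (0.27, adjusted p = 0.0333), and Dnmt1 was lower. From confluent cells to 14 d, 7 of 9 were called, beside 52.7% of all genes. There Tet3 (-0.38, adjusted p = 0.00279) and Dnmt3b (-0.58, adjusted p = 0.0396) were lower and Tet2 (0.57, adjusted p = 0.0108) was higher, in addition to the 4 called with all samples. In 21 d against 14 d Tdg joined Dnmt1 and Uhrf1, beside 26.6% of all genes, and in 21 d against subconfluent cells Dnmt3a joined the other 4 (0.41, adjusted p = 0.00702), beside 66.1%. The same 4 members as without the 24 h samples were called in confluent against subconfluent cells when the trend of each library with gene length was removed instead, beside 5.94% of all genes. With that trend removed, Dnmt1 and Tdg were lower in 24 h against confluent cells (9.24% of all genes called), and Dnmt1, Uhrf1, Dnmt3a and Tet3 were lower in 14 d against 24 h (23.3%), where Uhrf2 no longer passed. From confluent cells to 14 d, 8 of 9 then passed (38.3%), all but Dnmt3b. The removal was chosen after the 24 h replicates had been compared.

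The balance between the members shifted over the course. Uhrf1 was 12.3 and 12.8 times as abundant as Uhrf2 in subconfluent cells, by RPKM, 8.79 and 8.03 times in confluent cells, 5.71 and 5.12 times at 24 h, 2.82 and 2.43 times at 14 d, and 0.50 and 0.63 times at 21 d. The order of the paralogs was thus the reverse at 21 d in both samples. Dnmt1 was 10.6 and 11.4 times the summed RPKM of the 3 TETs in subconfluent cells and 1.66 and 1.92 times at 21 d. The ratio of Dnmt1 to Uhrf1 lay between 0.54 and 0.80 in the 8 samples up to 14 d, and was 1.87 and 1.503 at 21 d. The ratio of Dnmt3a to Dnmt3b was 0.92 and 1.16 in subconfluent cells, 1.29 and 1.24 in confluent cells and 1.47 and 1.52 at 24 h. It was 1.75 and 1.63 at 14 d and 1.87 and 1.36 at 21 d. The samples of 21 d lay on either side of those of 24 h and 14 d. The size of these ratios depends on the gene lengths used. By counts, not scaled by length, the mean ratio of Dnmt3a to Dnmt3b was 2.54 in subconfluent cells and 3.95 at 21 d. That of Dnmt1 to Uhrf1 was 1.02 and 2.62, and that of Uhrf1 to Uhrf2 was 5.93 and 0.27. All these ratios are given as descriptions and were not tested.

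**Figure D4:**
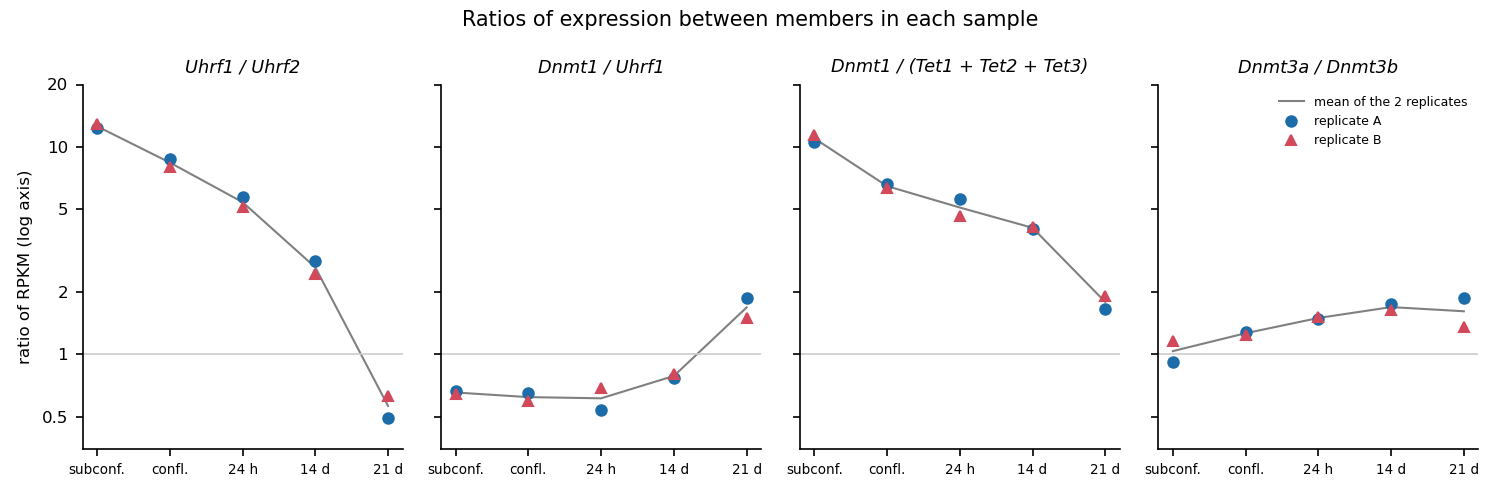
Ratios of RPKM between members in each sample, on a log axis. Circles are replicate A, triangles replicate B, the dark line joins the means of the 2 replicates, and the pale horizontal line marks equal levels. Uhrf1 against Uhrf2 falls from 12.6 to 0.56 and crosses equality between 14 d and 21 d, and Dnmt1 against the summed TETs falls from 11.01 to 1.79.

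Genes of S phase fell over the same stages. The 20 listed include Mcm2, a subunit of the replicative helicase, and Mki67, a marker of cycling cells. All 20 were lower at 21 d than in subconfluent cells (median log2 fold change -3.01), beside 23.5% of all genes. All 20 were also lower at 21 d than at 14 d (median -1.53), beside 5.95% of all genes. At 14 d, compared with confluent cells, 19 were lower (median -0.87), beside 15.3% of all genes. In confluent against subconfluent cells 4 were lower (1.34% of all genes) and in 24 h against confluent cells 2 (1.57%). Mcm2 went from 103.9 and 106.0 RPKM to 14.7 and 14.8 RPKM (log2 fold change -2.72, SE 0.13, adjusted p = 7.26e-06), and Mki67 from 34.6 and 33.0 RPKM to 3.46 and 4.45 RPKM (-2.98, SE 0.22, adjusted p = 3.99e-05). Over the whole course 2 of the 20 fell more than Uhrf1, 14 fell more than Dnmt1 and 19 fell more than Tdg. Within the second library set, from 14 d to 21 d, 1 of the 20 fell more than Uhrf1, 15 more than Dnmt1 and 20 more than Tdg. In 24 h against confluent cells the order differed, and 0 of the 20 had a lower value than Tdg. By RPKM, Dnmt1 was between 0.47 and 0.60 times Mcm2 in all 10 samples. Uhrf1 was 0.79 and 0.79 times Mcm2 in subconfluent cells and 0.29 and 0.40 times at 21 d, and Tdg was 0.11 and 0.10 times and then 0.18 and 0.20 times. Mcm5 and Mcm6, of the same helicase, fell 17.3-fold and 7.58-fold (adjusted p = 2.46e-06 and 2.7e-06), and Rrm2, a subunit of ribonucleotide reductase, fell 14.9-fold (adjusted p = 3.38e-06). The part of the cell cycle in the falls of the members was not tested.

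**Figure D5:**
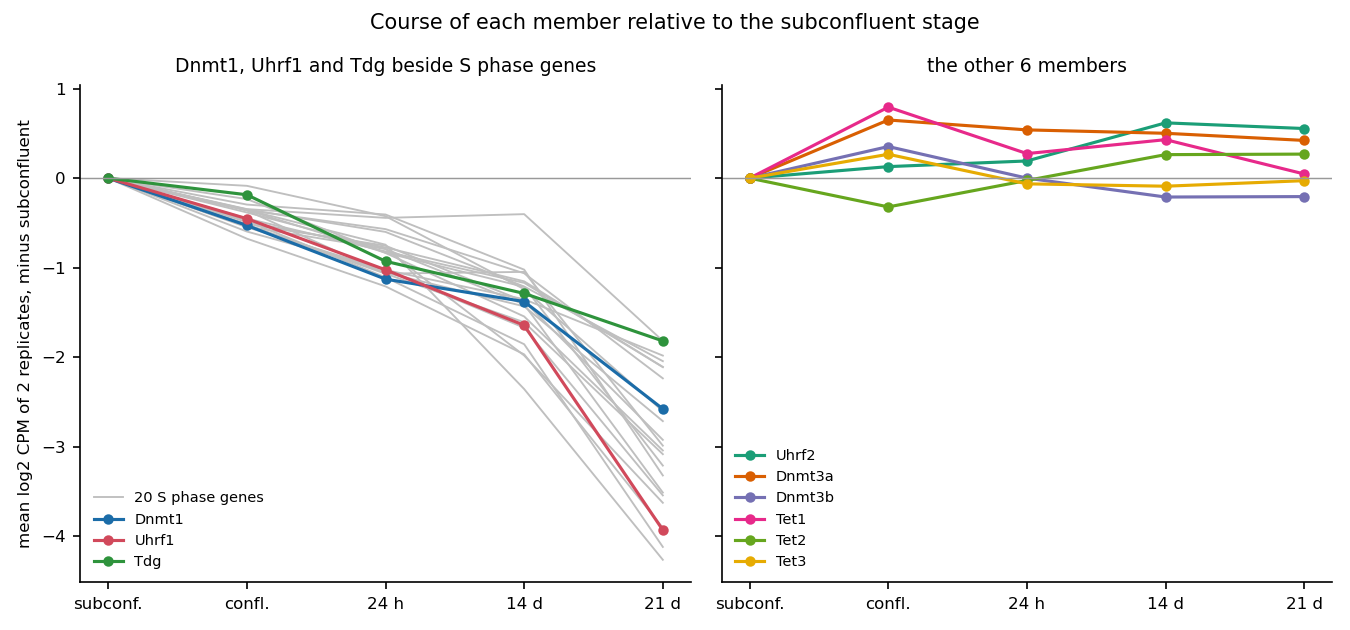
Mean log2 CPM (counts scaled to library size) of the 2 replicates at each stage, minus the subconfluent mean. Left, Dnmt1, Uhrf1 and Tdg in colour over 20 S phase genes in grey; right, the other 6 members on the same scale. At 21 d 2 of the 20 grey genes lie below Uhrf1, 14 below Dnmt1 and 19 below Tdg, and the 6 others stay within 1 log2 unit of the start.

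Genes listed as partners of the members in recruitment or maintenance mostly fell. Of the 11 tested, 6 were lower and 2 higher in 21 d against subconfluent cells, beside 23.5% and 27.3% of all genes. Lig1, the ligase that joins Okazaki fragments, went from 55.5 and 55.1 RPKM to 3.33 and 4.36 RPKM (log2 fold change -3.73, SE 0.17, adjusted p = 6.19e-06). Hells, a remodeller needed for methylation of repeats, went from 24.0 and 22.7 RPKM to 1.61 and 2.27 RPKM (-3.47, SE 0.22, adjusted p = 2.22e-05), and its partner Cdca7 from 13.0 and 13.2 RPKM to 2.87 and 2.68 RPKM (-2.12, SE 0.081, adjusted p = 3.6e-06). Pcna, the sliding clamp, which is also among the S phase genes, fell 4.71-fold. Usp7, which stabilises Dnmt1, changed less (log2 fold change -0.48, SE 0.12, adjusted p = 0.0114). The 2 higher genes, named after their values were seen, were Ogt, which binds the TETs, and Cxxc5, a CXXC-domain protein, at 25.3 and 23.8 RPKM and at 20.2 and 20.1 RPKM at 21 d against 7.45 and 6.26 RPKM and 8.89 and 8.69 RPKM in subconfluent cells.

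Repair genes downstream of the TETs and Tdg went in both directions, with 4 of 12 tested higher and 5 lower in 21 d against subconfluent cells, beside 27.3% and 23.5% of all genes. Ung, the uracil glycosylase, fell 8.05-fold, from 14.2 and 15.2 RPKM to 1.40 and 1.94 RPKM (adjusted p = 2.31e-05). Parp1, the sensor of DNA breaks, fell 2.43-fold (adjusted p = 6.86e-05). Gadd45a, a stress gene linked to demethylation, was between 1.74 and 3.90 RPKM in the 8 samples up to 14 d and at 15.0 and 14.2 RPKM at 21 d, 5.93-fold above subconfluent cells (adjusted p = 3.43e-05). Gadd45g, the most abundant of the list, went from 78.2 and 83.8 RPKM to 53.6 and 56.4 RPKM and did not pass the test (adjusted p = 0.0629). Neil2 was listed at 0 in every sample.

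Among 10 genes of families that include readers of methylated DNA, 3 were higher and 1 lower in 21 d against subconfluent cells. There 27.3% of all genes were higher and 23.5% lower. Mbd3, a subunit of the NuRD complex that has lost most of its affinity for methylated CpG, went from 106.1 and 113.9 RPKM to 54.0 and 53.3 RPKM (log2 fold change -0.92, SE 0.18, adjusted p = 0.00404), and Mbd6 from 12.3 and 11.5 RPKM to 19.0 and 18.2 RPKM (0.76, SE 0.23, adjusted p = 0.0253). Zbtb4, another gene of the list, was named after its values were seen. It was at 3.55 and 3.42 RPKM and then 11.6 and 10.2 RPKM (1.77, SE 0.47, adjusted p = 0.016), with 1.75 and 6.34 RPKM in the 24 h samples. Mbd2, which binds methylated CpG, was at 23.5 and 23.1 RPKM and then 24.9 and 24.6 RPKM (0.20, SE 0.071, adjusted p = 0.0488), a call that was lost in 15 of 22 alternative fits.

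Genes that supply the substrates of these enzymes mostly fell, with 7 of 13 lower and 4 higher in 21 d against subconfluent cells, beside 23.5% and 27.3% of all genes. Ahcy, which removes the S-adenosylhomocysteine left by methylation, fell 2.28-fold (adjusted p = 0.000538), from 57.7 and 61.2 RPKM to 22.9 and 25.2 RPKM. Mat2a, which makes S-adenosylmethionine, fell 1.32-fold (adjusted p = 0.00367). Idh1 and Idh3a, isocitrate dehydrogenases that produce 2-oxoglutarate, fell 2.51-fold and 2.02-fold (adjusted p = 1.94e-05 and 4.86e-05), and Idh2, the most abundant of the list, fell 1.61-fold (adjusted p = 0.00243). The 4 genes of ascorbate transport were all higher at 21 d than in subconfluent cells, beside 27.3% of all genes. In 24 h against confluent cells 0 of the 4 passed, beside 5.15% of all genes called. In confluent against subconfluent cells 0 of the 4 passed as well, beside 3.28%. Slc23a2, a sodium-dependent vitamin C transporter, was at 6.89 and 6.15 RPKM in subconfluent cells, 7.02 and 6.11 RPKM in confluent cells, 5.64 and 9.96 RPKM at 24 h, 14.5 and 14.1 RPKM at 14 d, and 16.3 and 16.6 RPKM at 21 d (log2 fold change 1.45, SE 0.21, adjusted p = 0.00105). Slc23a1 was at a lower level, with 0.71 and 0.70 RPKM in subconfluent cells and 1.29 and 1.37 RPKM at 21 d (1.03, SE 0.24, adjusted p = 0.00914). Slc2a1, a glucose transporter that also takes up dehydroascorbate, rose 1.57-fold (adjusted p = 0.0015), and Slc2a3 went from 0.05 and 0.04 RPKM to 0.49 and 0.58 RPKM (adjusted p = 0.000276).

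Germline genes whose promoters are silenced by methylation in somatic cells were mostly absent, and 4 of 15 listed passed the filter on low counts. The other 11 were at most 0.02 RPKM in every sample. Since a gene could pass the filter through the stage in which it was high, no count of higher genes is given over the 4. Taf7l, a germ cell paralog of a general transcription factor subunit, had 0.02 to 0.04 RPKM in the 8 samples up to 14 d and 0.46 and 0.45 RPKM at 21 d, from 2 to 10 counts per sample before and 36 and 80 counts at 21 d. Brdt, a testis bromodomain gene, went from 0.50 and 0.46 RPKM to 1.08 and 1.41 RPKM (1.49, SE 0.27, adjusted p = 0.00304). Dpep3 had 0 counts in all subconfluent and confluent samples, 1 count in each 24 h sample, 98 and 0 counts at 14 d, and 68 and 139 counts at 21 d, so 1 sample of 14 d stood apart from its pair. The other gene of the 4, Sycp3, was named after its values were seen. It was at 0.13 and 0.22 RPKM in subconfluent cells and at 0.10 and 0.25 RPKM at 21 d. Sycp3 did not pass the F test (adjusted p = 0.348). DNA methylation itself was not measured in these samples.

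The genes whose course was most like that of each member were found by the root mean square difference of log2 CPM (counts scaled to library size), each gene centred on its own mean, over the 10 samples and 12080 other genes with at least 5 CPM on average. For Dnmt1 they were Haus6, of the augmin complex of the mitotic spindle (0.060), and Dck, deoxycytidine kinase (0.080), against a root mean square amplitude of Dnmt1 itself of 0.88. For Uhrf1 they were Asf1b, a histone chaperone of replication (0.095), and Melk, a kinase of cycling cells (0.097), against an amplitude of 1.38. For Uhrf2 they were Zfp9 (0.043) and Zfp664 (0.059), for Dnmt3a Ankrd44 (0.12) and Map1a (0.12), and for Dnmt3b Rev1 (0.12) and Gcc2 (0.13), where the amplitudes were 0.25, 0.26 and 0.27. For Tet1 they were Plekha7 (0.13) and Sobp (0.14), for Tet2 Alx4 (0.098) and Baz2b (0.11), and for Tet3 Trp53bp1 (0.057) and Copa (0.075), against amplitudes of 0.35, 0.32 and 0.20. For Tdg they were Gm5597, a processed pseudogene (0.10), and Dis3, an exosome nuclease (0.10), against an amplitude of 0.69. The difference between the 24 h replicates is part of these courses and of their likeness.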

How the data were processed

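RNA-seq reads of 51 bp, paired-end, were processed by the authors with FastQC, TopHat2 (version 2.0.9) and R (3.0.1) on mm10, per the labels. The deposited tables hold raw read counts per gene and RPKM, scaled by the authors to gene length and library depth. The counting tool and its use of strand are not given in the sources used here. Counts were 1.44 to 1.60 times the reads behind RPKM.

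Samples were grouped by stage from the labels, 2 per stage. Counts were fitted with edgeR 4.0.16 (quasi-likelihood, TMM, filterByExpr) in R 4.3.3, with Benjamini-Hochberg adjustment over the 20808 genes that passed, in 6 pairwise comparisons and an F test. Log2 CPM used a prior count of 2. On counts simulated for 14 d against confluent cells over 20391 genes, 81 of 102 genes changed by 2 on the log2 scale and 27 of 98 changed by 1 were recovered. Only these genes, drawn above a minimum mean count, were changed, and only at 14 d. In the data 32.1% of all genes were called in that comparison, so the recoveries do not give the power of the reported test. Alternatives were DESeq2 1.42.0, limma 3.58.1 on log2(RPKM + 1) and log2(RPKM + 0.1), other filters and scalings, a replicate block and leaving out samples. Summing lanes and removing the trend with gene length (lowess, span 0.3) were chosen after seeing the data. The members and gene lists were chosen with earlier results of these data known. The genes named are the members, in each list the 3 genes of lowest p in the F test and the most abundant gene, Dnmt3l, Trdmt1, Usp7, Hells, Mat2a, Slc23a1, Slc23a2, Mki67 and Mcm2, and for each member the 2 genes of most similar course. Gene symbols matched 39547 of 40620 identifiers.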

Additional observations from a re-analysis of the deposited data

How the results depend on the processing

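Of the values of members called in the edgeR fit, 239 alternatives kept the call, 44 kept the direction only and 0 reversed. The falls of Dnmt1, Uhrf1 and Tdg from subconfluent cells to 21 d passed in 22 of 22 alternatives each. Counts of called members varied with the setting, and so did the share of all genes called. In confluent against subconfluent cells that share was 3.28%, 16.5% without the 24 h samples and 5.94% with the length trend removed. In 14 d against confluent cells it was 32.1%, 52.7% and 38.3%. The counts below are therefore not results about the members alone. For each comparison, the count of called members in the edgeR fit to all samples stands in brackets. In 21 d against subconfluent cells (4) it was 3 with library size alone or a 2-fold minimum, 5 with at least 10 counts in every sample, without the 24 h samples, with only the groups compared or with the length trend removed, and 4 to 5 with 1 replicate left out. In confluent against subconfluent cells (0) it was 4 in DESeq2, 4 without the 24 h samples, 2 with only the groups compared, 4 with the length trend removed and 0 to 4 with 1 replicate left out. In 24 h against confluent cells (1) it was 3 in DESeq2, 2 with the length trend removed, 0 with library size alone, only the groups compared, the replicate block, log2(RPKM + 0.1) or a 2-fold minimum, and 0 to 6 with 1 replicate left out. Between 24 h and 14 d (2) it was 1 with library size alone, no filter, the replicate block, log2(RPKM + 1) or log2(RPKM + 0.1), 0 with only the groups compared or a 2-fold minimum, 4 with the length trend removed and 0 to 5 with 1 replicate left out. Between 14 d and 21 d (2) it was 4 with only the groups compared or the length trend removed and 1 to 3 with 1 replicate left out. Between confluent cells and 14 d (4) it was 7 without the 24 h samples or with only the groups compared, 2 with a 2-fold minimum, 3 with library size alone or on either RPKM scale, 8 with the length trend removed and 2 to 7 with 1 replicate left out. The F test count (4) was 7 with the length trend removed and 4 to 8 with 1 replicate left out. The cause was not tested.

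Reversals concerned values that had not passed. With library size alone, log2 fold changes were -0.0503 for Uhrf2 in 24 h against confluent cells, -0.017 for Tet1 in 14 d against 24 h, 0.0010 for Dnmt3a, 0.023 for Uhrf2 and 0.085 for Tet2 in 21 d against 14 d, and -0.12 for Tet1 in 21 d against subconfluent cells. On log2(RPKM + 1) and log2(RPKM + 0.1), Uhrf2 was at -0.022 and -0.026 in 24 h against confluent cells and at 0.0096 and 0.011 in 21 d against 14 d, Tet2 at 0.040 and 0.073 in the latter, and Tet1 at -0.025 and -0.059 in 21 d against subconfluent cells and, on the first scale, at -0.0027 in 14 d against 24 h. With the length trend removed, Dnmt3a was at 0.040 in 24 h against confluent cells, Tet1 at -0.12 in 14 d against 24 h and at -0.056 for 21 d against subconfluent cells, and Dnmt3b at -0.0035 in 21 d against 14 d. Tet2 in 21 d against 14 d was 0.037 with no filter, 0.016 with at least 10 counts in every sample, 0.0033 without the 24 h samples and 0.035 with only the groups compared, and Tet3 in 21 d against subconfluent cells was 0.027 with at least 10 counts in every sample. With 1 replicate left out, values in 24 h against confluent cells ran from -0.37 to 0.17 (Dnmt3a), -0.0551 to 0.20 (Uhrf2), -0.17 to 0.78 (Tet2) and -0.65 to 0.0082 (Tet3). Between 24 h and 14 d they ran from -0.31 to 0.20 (Dnmt3a), -0.22 to 0.48 (Tet1), -0.20 to 0.74 (Tet2) and -0.37 to 0.27 (Tet3). Between 14 d and 21 d they ran from -0.19 to 0.023 (Dnmt3a), -0.20 to 0.20 (Dnmt3b), -0.14 to 0.0031 (Uhrf2) and -0.12 to 0.12 (Tet2). For 21 d against subconfluent cells they ran from -0.47 to 0.031 (Dnmt3b), -0.12 to 0.15 (Tet1) and -0.77 to 0.82 (Dnmt3c).

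The replicate letters A and B go with a library index within each library set, but no label ties them to a shared culture or day. Correlations of the A minus B differences between stages ran from -0.33 to 0.32, so the letters were not taken as pairs. With the replicate block Uhrf2 was the member called between 24 h and 14 d, and 0 were called in 24 h against confluent cells. Whether depth or the number of replicates limits precision was not compared. The lowest count of a member was 156.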
